A study of Drosophila melanogaster with 56 samples.

Results

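The comet and cup genes of *Drosophila melanogaster* are a small set of testis genes named for where their transcripts lie in the developing sperm cell. Here 10 of them were taken by gene symbol: *c-cup*, *d-cup*, *h-cup*, *m-cup*, *o-cup*, *p-cup*, *r-cup*, *w-cup*, *wa-cup* and the comet gene *schuy*. Of these, 9 were found among the 17490 genes counted, and all 9 passed the filter on low counts that kept 15675 genes. *o-cup* is named only. The 9 genes were followed in whole adult flies of both sexes and 8 genotypes, in which the 4 paralogs of the odorant binding protein cluster *Obp50a–d* had been inactivated or left functional one at a time.

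Sperm are made in the testis from germline stem cells through mitotic divisions, a long primary spermatocyte stage, meiosis and the elongation of spermatids. Most transcripts that spermatids need are made beforehand in primary spermatocytes and stored, and transcription largely stops around meiosis. The comet and cup genes are known as an exception, since they are transcribed after meiosis and their transcripts gather at the growing end of the elongating spermatid bundle, as a comet-like streak or as a cup.

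The genotypes were made in the Canton S (B) background. CRISPR/Cas9 replaced the cluster with a landing site, into which different versions of it were reinserted at the original locus. Obp50Pos carried all 4 functional paralogs, and Obp50a, Obp50b, Obp50c and Obp50d each carried the 1 functional paralog of that name, with premature stop codons in the others. Obp50NegBCD carried *Obp50b* with substitutions at conserved cysteines and an alanine (the CD allele), which may keep some function, with the others stopped. Obp50cBCD carried this allele beside a functional *Obp50c*. Obp50Neg had stop codons in all 4 paralogs. A genotype rested on at most 2 independent insertion lines, and Obp50Pos and Obp50d on 1 each. Each library was made from a pool of 30 mated flies of 1 sex.

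There were 56 libraries, 4 per sex and genotype and 2 per sex in Obp50Pos and Obp50d. In females, 1 library of Obp50Pos and 1 of Obp50cBCD were not used, which leaves 28 male and 26 female libraries and 1 library in female Obp50Pos. Total counts ran from 14638498 to 53517693 in males and from 17710678 to 39058552 in females. Levels are given as CPM, the count of a gene scaled to a common library total after TMM normalisation (counts per 1e+06), and FPKM divides this by the length of the gene's exons in kilobases. The headers of the deposited files split the libraries into a first set of 39, a second set of 14 and a set of 3 marked as a redo. Both male Obp50Pos libraries were in the second set, and all male Obp50c, Obp50d, Obp50NegBCD and Obp50Neg libraries were in the first. Nothing in the labels says whether the pools of a line were reared apart, so that *P* values measure the spread between these libraries.

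Some libraries stood apart. The male Obp50cBCD library J3_S53 of the redo set had the lowest total of the males, 14638498 against 20051089 to 53517693 in the others, and a TMM factor of 1.604 against 0.995 to 1.13. CPM is divided by this factor, which lowers every CPM value of J3_S53. After that scaling its testis transcripts were low. The 9 genes summed to 709 CPM in this library and to between 911 and 1418 CPM in the other males, spermatid genes to 1413 CPM against 2360 to 3217, and regulators of the spermatocyte programme to 414 CPM against 669 to 879. Genes of the accessory gland, which makes seminal fluid, were within the range of the others at 4782 CPM. A further 7 male libraries held over 400 CPM of the 3 yolk protein genes (414 to 2399 CPM), which fat body and ovary of females express, where the other 21 males had between 12.2 and 97.7 CPM and females between 7680 and 39202. Eggshell genes ranged from 201 to 1960 CPM in the same 7 libraries. These were 3 libraries of Obp50b and 1 each of Obp50a, Obp50c, Obp50NegBCD and Obp50cBCD. Among females, 1 Obp50Neg and 2 Obp50NegBCD libraries (6_S6, 17_S9 and 20_S37) held between 86.6 and 115 CPM of accessory gland genes, against 2.97 to 20.2 CPM in the other 23.

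The 9 genes lie on 4 chromosome arms and do not form a cluster. In the files' annotation, release 6 of the genome, *w-cup* (FBgn0032269) lies on 2L from 10575860 to 10577792 within the span of *Trim9* on the other strand, with 0 exon bases shared. *c-cup* (FBgn0031367) is on 2L from 1831627 to 1832565. On 3R are *wa-cup* (FBgn0037502, 7420765 to 7423057), *d-cup* (FBgn0038089, 12891956 to 12893158), *h-cup* (FBgn0038334, 15381407 to 15382951) and *m-cup* (FBgn0038488, 17144475 to 17149412). The X chromosome holds *p-cup* (FBgn0030840, 17446350 to 17448774) and *r-cup* (FBgn0031142, 21023390 to 21025888). *schuy* (FBgn0036925) is on 3L from 19986093 to 19988072, 224 bases from *hale*, another comet gene on the other strand.

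Reads were counted without regard to strand, so reads of overlapping genes on opposite strands cannot be told apart. *d-cup* shares 457 of its 1095 exon bases (41.7%) with the antisense gene *asRNA:CR44235*. *h-cup* shares 327 of 1545 (21.2%) with *Rbp*, and *schuy* shares 46 of 1917 with *Csas*. The other 6 genes share no exon base with another gene.

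All 9 genes were expressed mainly in males. *w-cup* was the most abundant, with a lowest, median and highest value of 439, 745 and 1024 CPM in male libraries and 0.527, 1.53 and 9.80 CPM in female libraries. The comet gene *schuy* had 65.2, 78.8 and 91.9 CPM in males and 0, 0.369 and 1.62 CPM in females. *h-cup* had 34.7, 46.4 and 68.2 CPM in males and 0, 0.148 and 1.37 CPM in females. In each of these 3 genes the lowest male library was at least 25.4 times the highest female library. *c-cup* had 14.2, 24.8 and 32.5 CPM in males and 0, 0.114 and 0.752 CPM in females. *p-cup* had 8.03, 14.98 and 20.8 CPM in males and 0, 0.334 and 0.866 CPM in females. *d-cup*, the least abundant in males, had 3.69, 5.36 and 13.2 CPM there and 0, 0.0971 and 0.433 CPM in females. Of these 3 genes the lowest male value was still between 8.52 and 18.9 times the highest female value. *wa-cup* had 21.0, 46.2 and 63.4 CPM in males and 0.279, 1.19 and 3.30 CPM in females. *r-cup* had 9.99, 22.2 and 31.8 CPM in males and 0.190, 0.815 and 3.33 CPM in females.

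*m-cup* was the exception in scale. It had 103, 144 and 166 CPM in males and 28.8, 48.4 and 58.3 CPM in females, where it was counted 486 to 1962 times in every library. Its lowest male library was 1.77 times its highest female library. It therefore made up between 9.98% and 16.2% (median 12.5%) of the summed CPM of the 9 genes in males and between 71.6% and 94.7% (median 90.3%) in females. *w-cup* took the largest share in males, between 58.4% and 72.2% (median 65.6%), and between 1.10% and 16.5% (median 3.12%) in females.

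**Figure D1:**
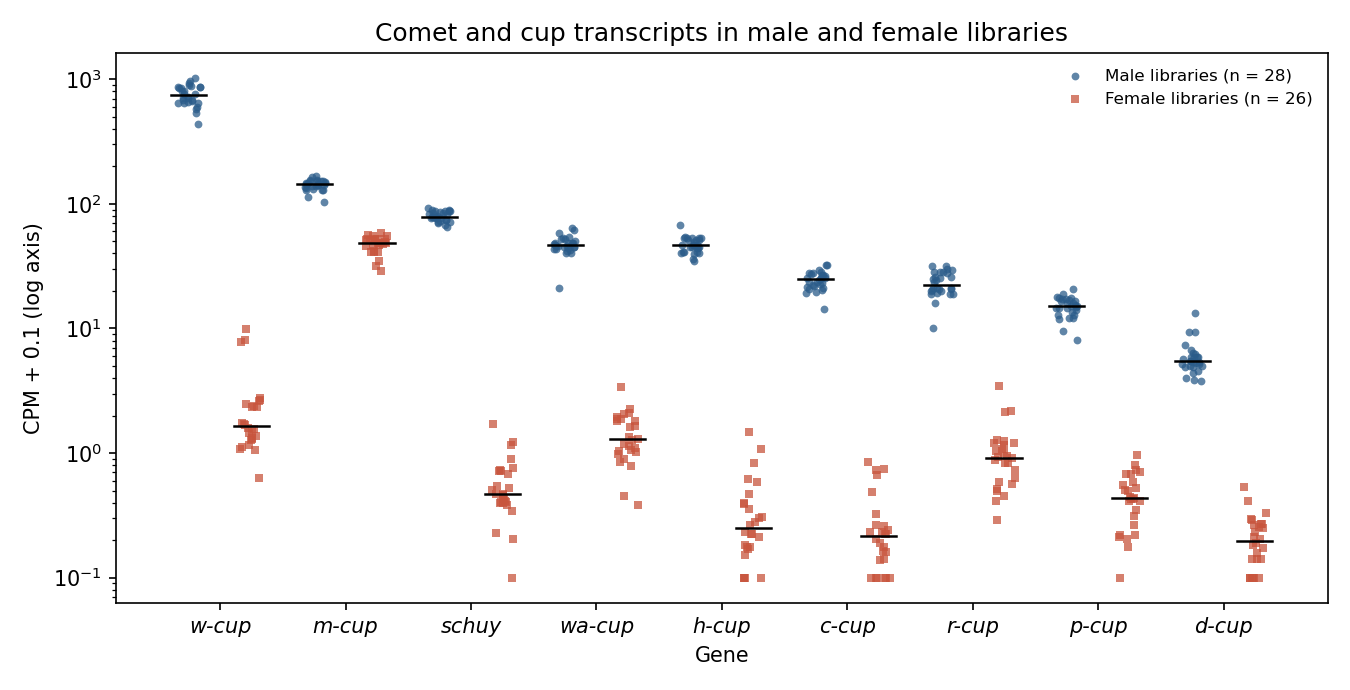
CPM + 0.1 on a log axis of each comet and cup gene in each of the 28 male libraries (circles) and 26 female libraries (squares), with the median as a bar. The male points of every gene lie above all its female points, and only *m-cup* has female values above 10 CPM, from 28.8 to 58.3 CPM.

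The lowest male value exceeded the highest female value for 9 of 9 genes, which held for 18.5% of all genes. By the quasi-likelihood test of edgeR, adjusted after Benjamini and Hochberg, 9 of 9 genes were higher in males averaged over the genotypes, where 43.6% of all genes were. The highest adjusted *P* of the 9 was 8.10e-23. The log2 fold changes of males over females were 8.50 (SE 0.38) for *w-cup*, 7.64 (SE 0.35) for *h-cup*, 7.46 (SE 0.25) for *schuy* and 5.79 (SE 0.29) for *d-cup*. They were 5.56 (SE 0.21) for *p-cup*, 5.26 (SE 0.20) for *wa-cup*, 4.72 (SE 0.22) for *r-cup* and 1.58 (SE 0.07) for *m-cup*, while the median of all genes was 0.10. A larger male excess than that of *w-cup* was found for 0.836% of all genes, and a larger one than that of *m-cup* for 23.1%. The direction held within each genotype, with 72 of 72 pairs of gene and genotype called, where the share of all genes called was lowest in Obp50Pos (24.3%) and highest in Obp50NegBCD (37.1%). It was 30.6% in Obp50d, 33.5% in Obp50c, 34.3% in Obp50Neg and 35.9% in Obp50a, and within the same limits in Obp50b and Obp50cBCD. Female Obp50Pos had 1 library, so the 9 calls in that genotype assume that it varied like the libraries of the other groups. The 9 calls averaged over genotypes also remained in all 53 fits that left out 1 library. In whole flies, fewer cells of a type and less RNA per cell cannot be told apart.

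Female counts were close to the limit of detection for most of the genes. *c-cup* had 0 counts in 6 of the 26 female libraries and 3 or fewer in 18. *d-cup* had the same numbers of such libraries, and *h-cup* had 0 in 4 and 3 or fewer in 13. A count of 0 allows up to 3 counts, which is between 0.105 and 0.172 CPM in the female libraries where *c-cup* was at 0. *c-cup* was at 0 in the 1 female Obp50Pos library used and in the 2 of Obp50d, so its fitted fold change depends on the prior count of the fit and is not used. Set against that floor, *c-cup* was at least 163-fold higher in males of Obp50Pos (28.03 CPM) and at least 143-fold higher in males of Obp50d (22.6 CPM). The female Obp50Pos library left out, J2_S52, had 21 counts of *c-cup* (0.707 CPM), so the bound for Obp50Pos holds for the used library only. The mean of *c-cup* over all libraries used was 24.4 CPM in males and 0.179 CPM in females, a ratio of 137. *w-cup*, *wa-cup* and *m-cup* had counts in every female library, with a lowest count of 10, 6 and 486.

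Per kilobase of exon, *w-cup* stood alone in males, at 402 ± 74.1 FPKM (SD, n = 28). *schuy* followed at 41.5 ± 3.77 FPKM (SD, n = 28). *m-cup* was at 37.5 ± 3.59, *h-cup* at 30.4 ± 4.51, *c-cup* at 27.7 ± 4.61 and *wa-cup* at 25.2 ± 4.17 FPKM. The 5 genes from *schuy* to *wa-cup* formed a graded series, in which the difference between neighbours was smaller than the sum of their SDs. *r-cup* at 10.8 ± 2.39 FPKM lay further from *wa-cup* than the sum of both SDs, although the ranges overlapped. *p-cup* was at 7.96 ± 1.49 and *d-cup* at 5.31 ± 1.79 FPKM, each closer to its neighbour in the order than the sum of both SDs.

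Whether the *Obp50* paralogs alter these male transcripts was asked by setting each genotype against Obp50Neg, and Obp50b and Obp50cBCD against Obp50NegBCD. Obp50cBCD was also set against Obp50c. Genotype means in males differed by less than 2-fold for every gene. The ratio of the highest to the lowest mean ran from 1.18 in *m-cup*, with 156 ± 7.31 CPM in Obp50NegBCD and 131 ± 4.85 CPM in Obp50d (SD, n = 4 and 2), to 1.80 in *d-cup*, with 8.20 ± 3.39 CPM in Obp50c and 4.55 ± 0.675 CPM in Obp50b (SD, n = 4 each). When the 8 genotypes were put in order of their means for each gene, 5 of 63 neighbouring pairs differed by more than the larger of the SDs of the pair and 1 pair had ranges that did not overlap. Neighbours in such an order are close by construction, so these counts do not bear on genotypes further apart in it. The share over all genes was not computed.

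*w-cup* varied most in absolute terms. Its male libraries had 884 and 849 CPM in Obp50Pos, and 931, 964, 871 and 904 CPM in Obp50a. They had 765, 803, 1024 and 705 CPM in Obp50b, 683, 726, 687 and 872 CPM in Obp50c, and 803 and 853 CPM in Obp50d. They had 641, 600, 646 and 574 CPM in Obp50NegBCD, 540, 656, 863 and 439 CPM in Obp50cBCD, and 668, 647, 766 and 704 CPM in Obp50Neg. All libraries of Obp50Pos, Obp50a and Obp50d were thus above all of Obp50Neg, and all of Obp50NegBCD were below it. Of all genes, 37.8%, 15.2%, 38.8% and 11.8% had ranges apart from Obp50Neg in Obp50Pos, Obp50a, Obp50d and Obp50NegBCD. The male Obp50Pos libraries were in the second set and those of Obp50Neg in the first, so set and genotype cannot be told apart there. Obp50b, Obp50c and Obp50cBCD overlapped with Obp50Neg. The mean was 917 ± 39.5 CPM in Obp50a, 615 ± 34.2 CPM in Obp50NegBCD and 696 ± 51.8 CPM in Obp50Neg (SD, n = 4 each).

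*wa-cup* had its lowest mean in Obp50cBCD and its highest in Obp50c. Its libraries had 44.8 and 44.4 CPM in line 21 and 42.5 and 21.0 CPM in line 5 of Obp50cBCD males. Obp50c males had 46.6 and 53.1 CPM in line 24 and 61.8 and 63.4 CPM in line 6, so line 24 was closer to line 21 of Obp50cBCD. The groups did not overlap, which held for 4.65% of all genes in this contrast, and the lowest value was that of J3_S53. *h-cup* had 53.4 and 53.6 CPM in Obp50Pos males and 53.2, 51.4, 51.4 and 53.6 CPM in Obp50a males, against 40.4, 41.2, 46.5 and 44.3 CPM in Obp50Neg males. *c-cup* had 26.7 and 29.3 CPM in Obp50Pos males and 27.0, 27.95, 28.1 and 32.4 CPM in Obp50a males, against 24.4, 20.6, 21.8 and 26.5 CPM in Obp50Neg males. *c-cup*, *h-cup* and *w-cup* were therefore above Obp50Neg in every library of Obp50Pos and of Obp50a. Ranges that do not overlap were found for 37.8% of all genes with Obp50Pos, which has 2 libraries, and for 15.2% with Obp50a.

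The opposite order was seen in other members. *m-cup* had 142 and 130 CPM in Obp50Pos males and 135 and 128 CPM in Obp50d males, against 156, 143, 152 and 163 CPM in Obp50Neg males. *r-cup* had 18.6 and 18.7 CPM in Obp50d males, against 25.8, 21.0, 20.4 and 29.2 CPM in Obp50Neg males. *p-cup* had 13.9 and 12.01 CPM in Obp50d males, against 15.96, 14.9, 14.5 and 18.8 CPM in Obp50Neg males. All 3 genes were below Obp50Neg in both Obp50d libraries, a contrast in which the ranges of 38.8% of all genes do not overlap. *schuy* had 88.5, 88.4, 91.9 and 88.0 CPM in Obp50NegBCD males, against 78.3, 72.3, 74.2 and 86.7 CPM in Obp50Neg males. It was above Obp50Neg in every Obp50NegBCD library, where 11.8% of all genes had ranges that do not overlap. *d-cup* had its highest male values in single libraries, 13.2 CPM in Obp50c 62_S23 and 9.26 CPM in Obp50Pos 69_S37 and in Obp50cBCD J3_S53, with 3.69 to 7.26 CPM in the other 25.

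**Figure D2:**
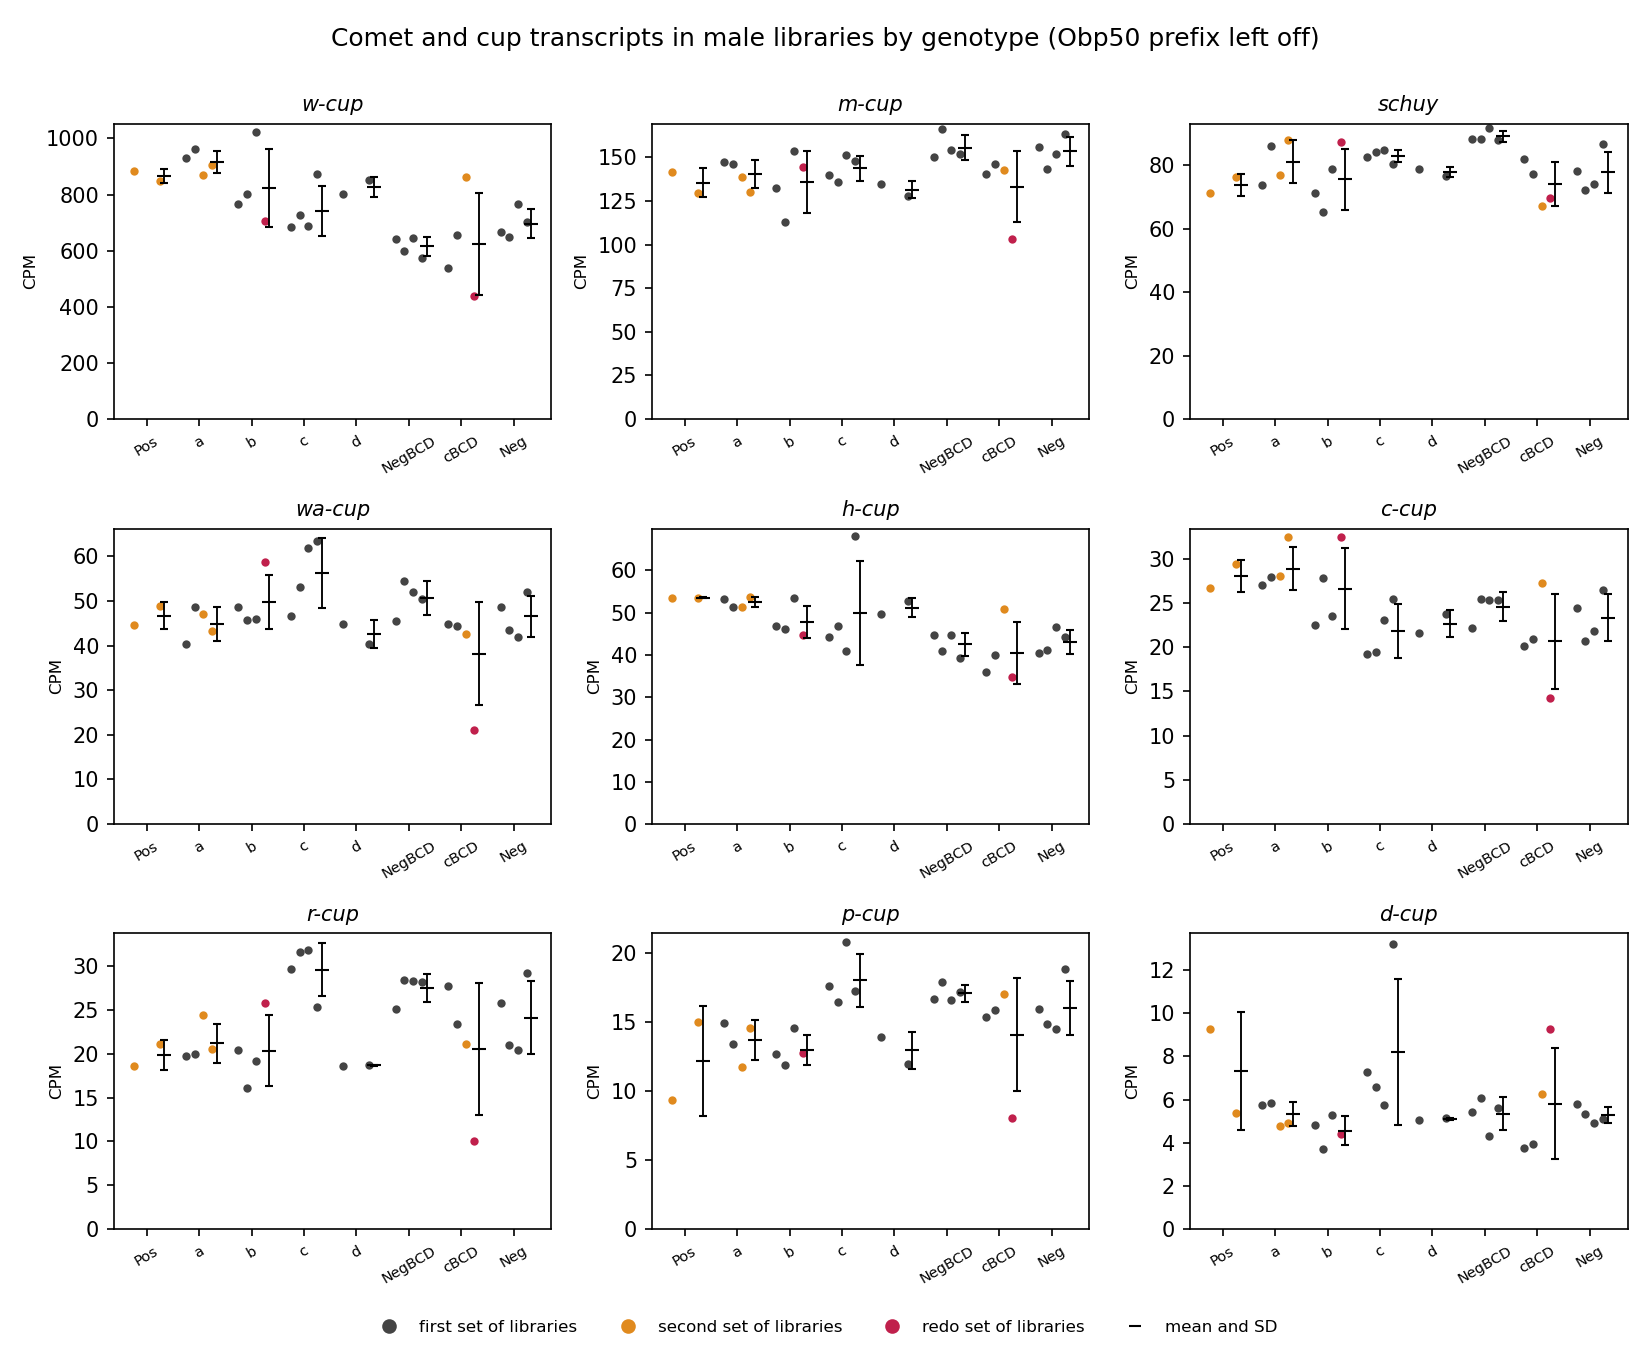
CPM of each gene in every male library by genotype, coloured by the set named in the file headers, with the mean and SD of the group beside its points (n = 4, or n = 2 in Obp50Pos and Obp50d). *w-cup* lies between 871 and 964 CPM in Obp50a and between 574 and 646 CPM in Obp50NegBCD, and the redo library of Obp50cBCD (J3_S53) is the lowest male library for 7 of the 9 genes. The CPM of J3_S53 are divided by a TMM factor of 1.604.

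None of these differences passed the test. With both sexes in 1 quasi-likelihood fit of edgeR, 0 of 81 pairs of gene and contrast were called in males, 0 had an unadjusted *P* under 0.05, and the lowest adjusted *P* was 0.494. DESeq2 also called 0 of 81 (1 with an unadjusted *P* under 0.05), as did limma-voom with a random effect of line (5). A mixed model with random line called 4 (34 with an unadjusted *P* under 0.05). It was fitted to unlogged values of both sexes with a shared residual variance. Its spread for males thus also rests on the lower female values, and in females 0 of 81 pairs had an unadjusted *P* under 0.05. Against Obp50Neg, edgeR called 0.0128% of all genes in Obp50Pos and in Obp50d, 0.0191% in Obp50c, and 0% in Obp50a, Obp50b and Obp50NegBCD. It called 0.0255% in Obp50b and 1.68% in Obp50cBCD against Obp50NegBCD, and 0.293% in Obp50cBCD against Obp50c. In this last contrast 0 of 9 members had a fold change above 1, and their median was −0.31 on the log2 scale against −0.02 over all genes. Obp50cBCD holds J3_S53, the library with low testis transcripts after scaling, and its part in this shift was not tested. A joint test of any difference between genotypes called 0 of 9 genes in males (0 with an unadjusted *P* under 0.05), where it called 2.98% of all genes. The test of divergence among the 4 single-paralog genotypes called 0 (0.223% of all genes). The test of epistasis, which set Obp50Pos against the sum of the 4 single effects on the log2 scale, called 0 (0.0128%). In each of these edgeR tests, 0 members had an unadjusted *P* under 0.05. On unlogged values, the mixed model called 0 of 9 in the test of epistasis (2 with an unadjusted *P* under 0.05).

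**Figure D3:**
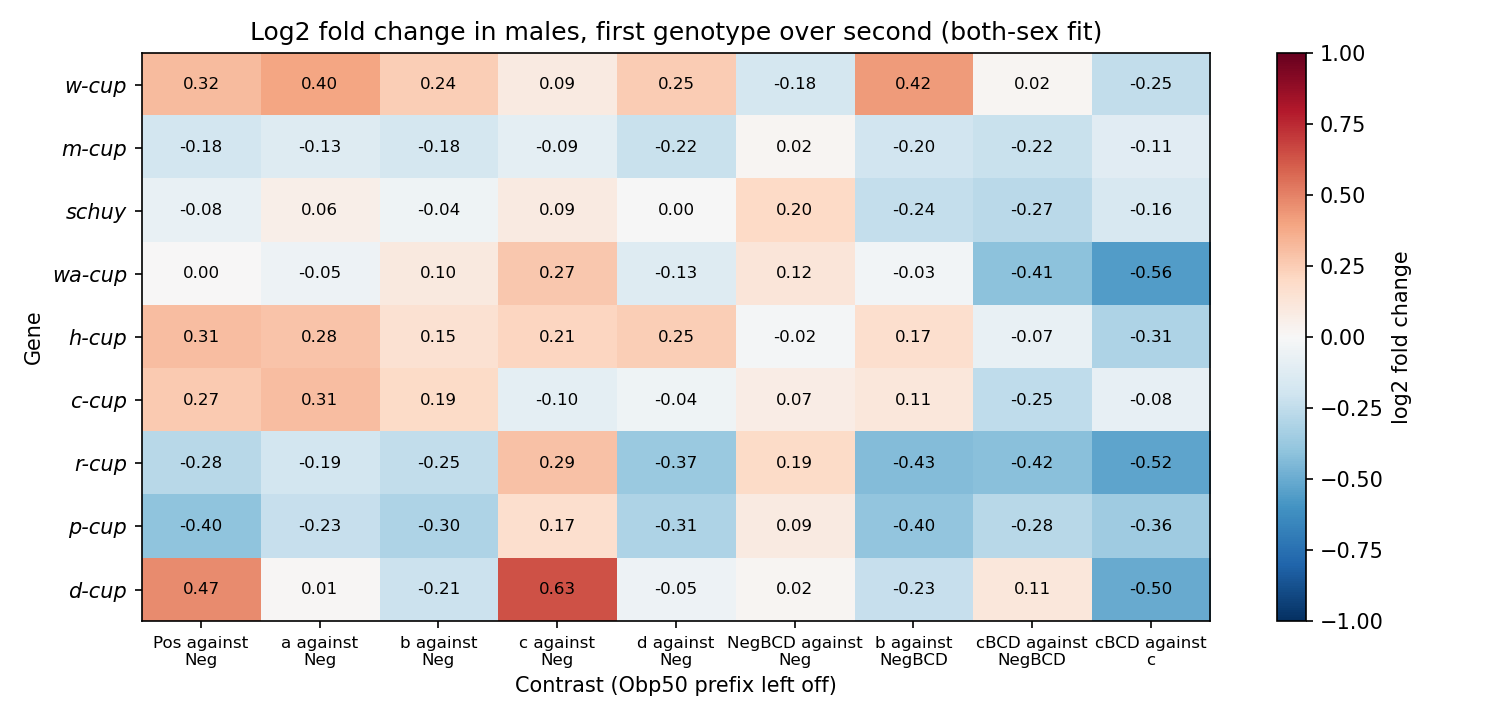
Log2 fold change in males of each gene (rows) in each of the 9 contrasts (columns), first genotype over second, from the fit over both sexes, none of which passed the test. *w-cup* is at 0.40 in Obp50a against Obp50Neg and at 0.42 in Obp50b against Obp50NegBCD, and all 9 genes are below 0 in Obp50cBCD against Obp50c. Obp50cBCD holds J3_S53, whose testis transcripts were low after scaling.

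The gene-wise dispersion estimated for these genes was larger with both sexes in the fit than in males alone. It is given as a description, since the quasi-likelihood test rests on other estimates of spread. In that test the SE of *w-cup* in Obp50a against Obp50Neg males was 0.42 over both sexes and 0.13 in males alone. The dispersion of a gene, its squared coefficient of variation among replicates beyond counting noise, was 0.180 for *w-cup* over both sexes, 0.0201 in males alone and 0.360 in females alone. For *h-cup* it was 0.184, 0.0170 and 0.975, and for *c-cup* 0.0694, 0.0211 and 0.793. The common dispersion of all genes was 0.104 over both sexes, 0.0776 in males and 0.141 in females. The female libraries, in which these genes are at a few counts, thus varied most. For females, the dispersion over both sexes was lower than in females alone.

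Fitted in males alone, the joint test called *w-cup* (adjusted *P* = 0.0317 in edgeR), 1 of 9 genes, where it called 16.4% of all genes. The call held in 20 of 28 fits that left out 1 male library. It was lost without any 1 of the 4 Obp50NegBCD libraries and without 50_S30 or 82_S34 of Obp50a, 66_S35 of Obp50d or 69_S37 of Obp50Pos, up to an adjusted *P* of 0.0673 without 24_S41. With a random effect of line in limma-voom, chosen after seeing the data, it was 0.179 (1.41% of all genes called). The test of divergence in males alone called 0 of 9 genes (3 with an unadjusted *P* under 0.05, 5.44% of all genes called). Among the single contrasts in males alone, *w-cup* was 0.38 (SE 0.13) higher on the log2 scale in Obp50a than in Obp50Neg (adjusted *P* = 0.166, 0.332% of all genes called). It was 0.40 (SE 0.13) higher in Obp50b than in Obp50NegBCD (adjusted *P* = 0.0847, 2.61% called). The mixed model, whose spread rests on both sexes, called both differences, at adjusted *P* of 0.0178 (0.657% of all genes called) and 0.0298 (0.855%). It also called *p-cup* in Obp50b against Obp50NegBCD (0.0360). In limma-voom on males alone with a random effect of line, none of these 3 was called, with adjusted *P* of 0.449 and 0.247 for *w-cup* and 0.267 for *p-cup* (0% and 0.0574% of all genes called).

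In males alone, edgeR called 1 of 81 pairs (19 with an unadjusted *P* under 0.05). *wa-cup* was lower in Obp50cBCD than in Obp50c by a log2 fold change of −0.52 (SE 0.14, adjusted *P* = 0.0482), where 3.01% of all genes were called. In the other contrasts of males alone, the share of all genes called was 0.606% in Obp50Pos, 0.0191% in Obp50b, 1.42% in Obp50c, 0.0447% in Obp50d and 0.0383% in Obp50NegBCD against Obp50Neg, and 1.99% in Obp50cBCD against Obp50NegBCD. The mixed model, whose spread rests on both sexes, called the *wa-cup* difference as well (adjusted *P* = 0.0231, 1.36% of all genes). With a random effect of line in limma-voom, males alone, adjusted *P* was 0.233 (0.0319% of all genes called), and 0 of 81 pairs were called there (11 with an unadjusted *P* under 0.05). In edgeR the call remained in 2 of 8 fits that left out a library of the pair, with adjusted *P* from 0.0343 to 0.121 and log2 fold changes from −0.59 to −0.36. It was lost without J3_S53 or 28_S12 of Obp50cBCD and without any 1 of the Obp50c libraries. Of 16 spermatid genes, which are transcribed before meiosis, 0 had a log2 fold change above 0 in the same contrast (median −0.37 against 0.04 over all genes in males alone), and 3 of them were called lower, *djl*, *fzo* and *Mst87F*. The Obp50cBCD library J3_S53 had 1413 CPM of these spermatid genes, against 2360 to 3217 CPM in the other males.

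The sets of libraries bear on the same comparisons. Within the 21 male libraries of the first set, chosen after seeing the data, the joint test called *w-cup*, *r-cup*, *p-cup* and *d-cup* (adjusted *P* between 0.00304 and 0.0246), 4 of 9 genes where it called 25.2% of all genes. That set held no male Obp50Pos library, so the joint test left this genotype out, and it held only line 1 of Obp50a. In Obp50b against Obp50NegBCD the fit to the first set called *w-cup* higher (log2 fold change 0.48) and *r-cup* (−0.58), *p-cup* (−0.40) and *schuy* (−0.33) lower, where it called 16.3% of all genes. *wa-cup* was not called in Obp50cBCD against Obp50c there, where *d-cup* was (−1.11, adjusted *P* = 0.0249, 3.60% of all genes). Male Obp50cBCD was present in the first set with the 2 libraries of line 21 only, so line and genotype cannot be told apart in that contrast. Without the 7 male libraries with the most yolk protein RNA, also chosen after seeing the data, males alone gave a call for *w-cup* and *c-cup* in the joint test (adjusted *P* = 0.00710 and 0.0388, 13.7% of all genes). With those libraries left out, *w-cup* and *h-cup* were lower in Obp50cBCD than in Obp50c (−0.43 and −0.46, adjusted *P* = 0.0263 and 0.0288, 8.15% of all genes). Of the 4 Obp50b libraries 3 are among the 7, so these fits hold 1 male library of Obp50b and cannot show its spread. The part of female RNA in the Obp50b values was not tested.

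Lines of the same genotype gave a further comparison. In the fit over both sexes 0 of 54 pairs of gene and line contrast were called (2 with an unadjusted *P* under 0.05). Of all genes, 0.0510% were called between the lines of Obp50Neg, 0.0128% in Obp50NegBCD, 11.7% in Obp50c, 0.108% in Obp50b, 0.376% in Obp50a and 12.2% in Obp50cBCD. In males alone, *d-cup* was lower in line 21 than in line 5 of Obp50cBCD, with 3.77 and 3.92 CPM in line 21 against 6.27 and 9.26 CPM in line 5 (log2 fold change −1.15, SE 0.32, adjusted *P* = 0.0224, 14.9% of all genes called). Line 21 was in the first set and line 5 in the second and redo sets, so line and set cannot be told apart there.

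The 9 genes did not vary as 1 unit across male libraries. Over the 28 libraries, Pearson's r between the log2 CPM of 2 members ranged from −0.22 to 0.88 over 36 pairs, with a median of 0.25 and 24 pairs above 0. *h-cup* and *w-cup* went together most closely (r = 0.88, and 0.87 without J3_S53). In a grouping made after the values were seen, *c-cup*, *h-cup* and *w-cup* correlated with each other at 0.54 to 0.88. *m-cup*, *p-cup*, *r-cup* and *wa-cup* correlated with each other at 0.65 to 0.81, and pairs across both groups at −0.08 to 0.54. Without J3_S53 the ranges were 0.42 to 0.87, 0.34 to 0.71 and −0.66 to 0.14. The lowest, −0.66, was between *w-cup* and *r-cup*. The points share libraries, genotypes and sets, and r is given as a description. Within the 21 libraries of the first set, 25 of the 36 pairs were above 0, with a median of 0.26.

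**Figure D4:**
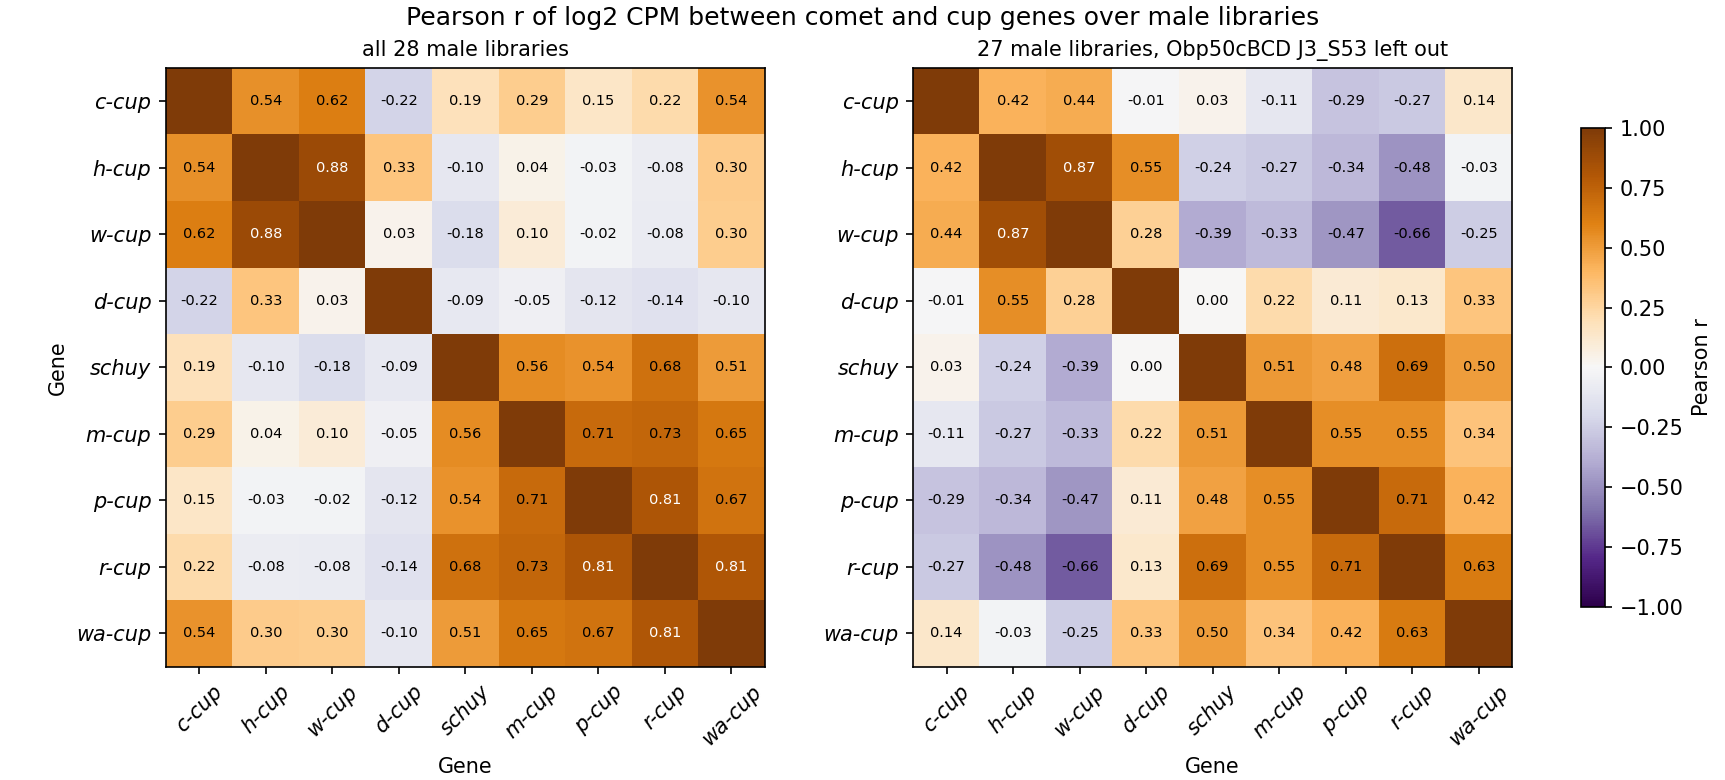
Pearson's r of log2 CPM between each pair of genes over all 28 male libraries (left) and over the 27 without Obp50cBCD J3_S53 (right). *c-cup*, *h-cup* and *w-cup* form 1 block, at 0.42 to 0.87 on the right, and *m-cup*, *p-cup*, *r-cup* and *wa-cup* another, at 0.34 to 0.71, with values between −0.66 and 0.14 across them.

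The genes most like the members were found by correlating each of 15666 other genes with the mean log2 CPM of the 9 over the 28 male libraries, each member centred on its own mean. The closest were *Hsp60B* (r = 0.92), a mitochondrial chaperonin known to be needed for sperm individualization, *CG32436* (0.91), *CG30350* (0.89), *CG13978* (0.89) and *Scsalpha2* (0.88), a succinyl-CoA synthetase subunit. *CG7634* (0.88), *CG31773*, *CG2528*, *CG1835* and *CG31161* (each 0.87) completed the first 10. Much of this likeness lay in 1 library, since 107 genes had r above 0.8 with J3_S53 and 1 gene, *Hsp60B* at 0.82, without it. *Hsp60B* had a mean of 268 CPM in males and 1.27 CPM in females.

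In females the few transcripts of these genes were unevenly spread over the libraries. *w-cup* had 7.69, 1.59, 1.28 and 7.92 CPM in Obp50NegBCD and 1.44, 1.23, 1.16 and 9.80 CPM in Obp50Neg, and between 0.527 and 2.67 CPM in the libraries of the other genotypes. The 3 high values were those of 6_S6, 17_S9 and 20_S37, the female libraries with the most accessory gland RNA. In *r-cup* and *c-cup* the highest female value was instead in Obp50b 33_S25, with 3.33 CPM of *r-cup* and 0.752 CPM of *c-cup*, and the same library was highest in *h-cup* (1.37 CPM) and *schuy* (1.62 CPM). It had 14.2 CPM of accessory gland genes, within the range of the other females.

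**Figure D5:**
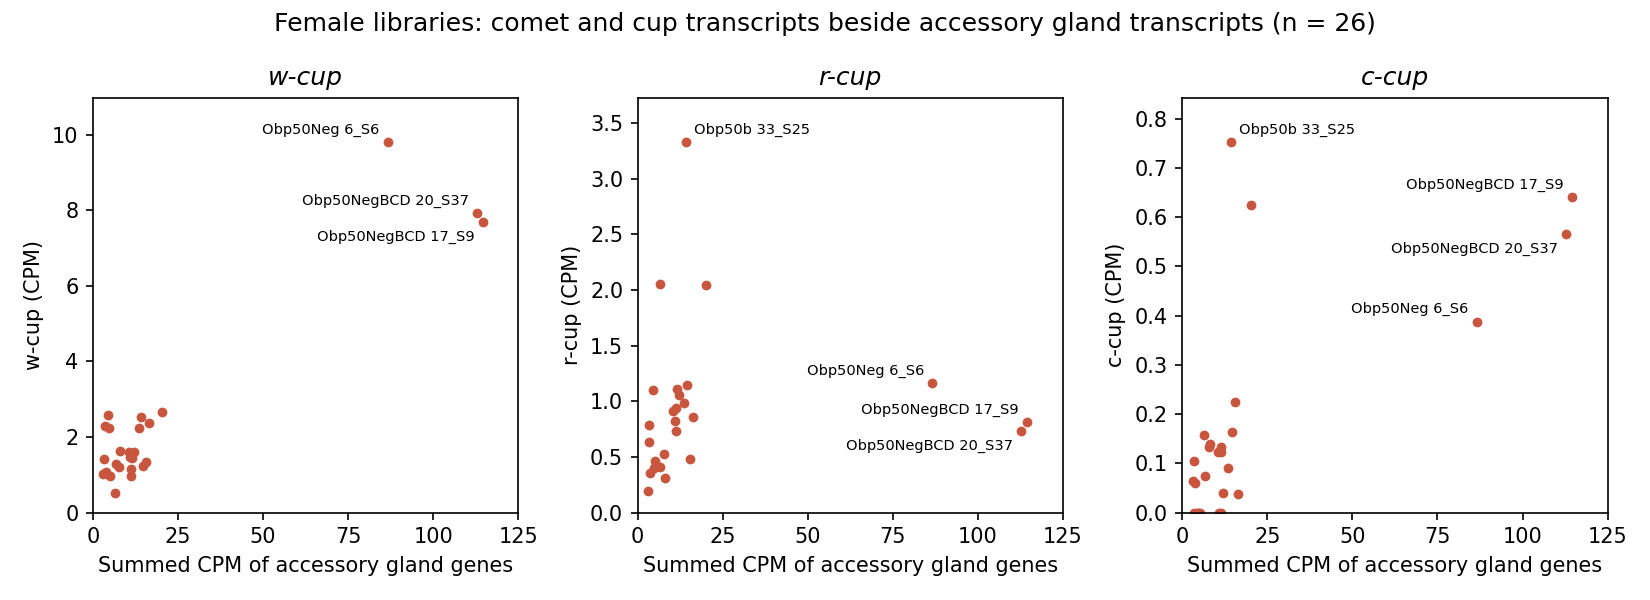
CPM of *w-cup*, *r-cup* and *c-cup* (vertical axes) against the summed CPM of accessory gland genes (horizontal axes) in the 26 female libraries. The 3 libraries with 86.6 to 115 CPM of accessory gland genes have 7.69 to 9.80 CPM of *w-cup*, all other females have at most 2.67 CPM, and *r-cup* is highest (3.33 CPM) in Obp50b 33_S25.

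These levels rest on few reads, at most 33 counts of *c-cup*, 146 of *r-cup* and 228 of *w-cup* in a female library. The joint test over genotypes in females called 3 of 9 genes in the edgeR fit over both sexes, *w-cup* (adjusted *P* = 0.0137), *c-cup* (0.0129) and *r-cup* (0.0297), where it called 24.6% of all genes. That fit estimates spread over both sexes, and the dispersion was lower there than in females alone. It was 0.180 against 0.360 for *w-cup*, 0.0694 against 0.793 for *c-cup* and 0.109 against 0.273 for *r-cup*. Without 6_S6, 17_S9 and 20_S37, chosen after seeing the data, *w-cup* (0.0395) and *c-cup* (0.00817) were called and *r-cup* was not (0.0563), where 16.2% of all genes were. Leaving out 17_S9 or 20_S37 alone ended the call of *w-cup* (adjusted *P* up to 0.0692), and leaving out 33_S25, 62_S42, 83_S35 or 84_S36 that of *r-cup* (up to 0.102). Females fitted alone gave 0 calls (0 with an unadjusted *P* under 0.05, 1.38% of all genes called), and limma-voom with a random effect of line gave 0 (1.64% of all genes). DESeq2 gave 7 (40.8% of all genes). In single contrasts edgeR called 0 of 81 pairs in females (13 with an unadjusted *P* under 0.05), and DESeq2 called 4. Of all genes, edgeR called 0.0255% in Obp50Pos, 1.13% in Obp50b, 1.35% in Obp50c, 0.823% in Obp50d and 0.102% in Obp50NegBCD females against Obp50Neg, 14.5% in Obp50b against Obp50NegBCD and 0.919% in Obp50cBCD against Obp50c. The lowest adjusted *P* was 0.0520, for *w-cup* in Obp50cBCD against Obp50NegBCD (log2 fold change −2.25, SE 0.54, 0.287% of all genes called), a contrast whose second group holds 17_S9 and 20_S37. The part of accessory gland RNA in these *w-cup* values was not tested. *r-cup* had 0.462, 0.399, 0.190 and 0.355 CPM in Obp50a females, against 1.11, 1.15, 0.939 and 1.16 CPM in Obp50Neg females, and the groups did not overlap, as for 7.92% of all genes (log2 fold change −1.57, SE 0.48, adjusted *P* = 0.0736, 1.89% of all genes called). The female Obp50a libraries all belonged to the second set and those of Obp50Neg to the first, so set and genotype cannot be told apart in that contrast.

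Whether the effect of a genotype differed between the sexes was tested as an interaction. edgeR called 0 of 81 pairs (10 with an unadjusted *P* under 0.05, lowest adjusted *P* = 0.200), where it called between 0% and 0.344% of all genes. DESeq2 called 1, *w-cup* in Obp50cBCD against Obp50NegBCD (log2 difference 2.48, adjusted *P* = 0.0414, 0.893% of all genes).

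Most other comet and cup genes were higher in males too. Of 9 further ones in the table, *cola* was at 0 and 8 were tested, and 7 of the 8 were higher in males (median log2 fold change 6.68 against 0.10 over all genes). *soti*, an inhibitor of a cullin ubiquitin ligase in spermatids, had a median of 93.3 CPM in males and 0.310 CPM in females. *f-cup*, like *m-cup*, had female transcripts in quantity, with a median of 135 CPM in males and 26.0 CPM in females. *t-cup* was higher in females by a log2 fold change of −0.91 (SE 0.17), with 61.1, 150 and 317 CPM in males and 105, 260 and 849 CPM in females as lowest, median and highest value.

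Genes of the earlier steps of sperm formation framed these values. Of 16 spermatid genes transcribed in spermatocytes, such as the sperm tail gene *dj*, 16 were higher in males (median log2 fold change 8.48). Of 15 regulators of the spermatocyte programme, such as *aly* and *can*, 14 were higher and *twe*, a cell cycle phosphatase used in meiosis of both sexes, was lower (median 3.73). Of 4 early germ cell genes, *bgcn* was higher in males and *nos*, *vas* and *zpg*, which the ovary expresses as well, were lower (median −4.97). The joint test over genotypes in males called 0 genes of each of these lists in the fit over both sexes. In males alone it called 1 of 8 other comet and cup genes (*t-cup*), 8 of 16 spermatid genes, 1 of 15 spermatocyte regulators (*nht*), 1 of 4 early germ cell genes (*bgcn*) and 4 of 10 accessory gland genes, beside 1 of the 9 members and 16.4% of all genes.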

How the data were processed

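Whole mated flies of 56 pools (30 flies each, sexes apart) were sequenced as rRNA-depleted RNA. Per the labels and methods, the authors aligned reads with GSNAP to reference release 6 and counted read pairs per gene, without strand, with featureCounts 1.6.4. The deposited values are raw counts per gene, not normalized. The series table (17490 genes) and the tables per library agreed in all 979384 shared cells. The 54 libraries that the study used were analysed. The filter kept 15675 genes, those counted at least once in 25% of libraries or more and with a median count of 2 or more.

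Counts were fitted in R 4.3.3 with edgeR 4.0.16 (TMM scaling, quasi-likelihood test, 16 means of sex and genotype), with Benjamini-Hochberg adjustment over all genes at a threshold of 0.05. Each sex alone, other scalings and filters, all 56 libraries, counts summed by line, DESeq2 1.42.0, limma-voom (limma 3.58.1) with a random effect of line, a mixed model with random line (lme4 1.1.37, lmerTest 3.1.3) and the removal of each library were alternatives. The mixed model used unlogged GeTMM values (TMM after division by gene length) of both sexes, with a further random effect of sex within line. Fits to the first set, fits without the libraries rich in yolk protein or accessory gland RNA and the blocked fit of males alone were added after seeing the data. log2 CPM used a prior count of 2. Figures were drawn with matplotlib 3.10.9.

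All members found were described, with the genes most like them by Pearson's r (first 10) and the calls of the fixed gene lists. Members and lists were chosen with earlier results of these data known. *borr* was left out of the other comet and cup genes, since that symbol names another gene in the annotation. Sequences and promoter motifs were not analysed here. Replicates of a group differed by more than sampling noise (72 pairs, lowest chi-square per gene 14.6). Total counts of 14638498 to 53517693 set the precision, and floors and counts of 0 cover counting error only. On simulated counts for males of Obp50c against Obp50Neg (15627 genes, both sexes fitted), 61 of 100 genes changed 2-fold and 98 of 100 changed 4-fold were recovered, with 5 other genes called. The simulated libraries had no line effect. Male genotype means of the members differed by less than 2-fold, and recovery of such smaller changes was not tested.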

Additional observations from a re-analysis of the deposited data

Results flagged for a closer look

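In groups of 4 libraries, 1 library was far from the other 3 in 13 of 99 pairs of gene and group, where chance gives about 1 in 20 (4.95 pairs). The pairs share libraries, so they are not independent. In males, J3_S53 of Obp50cBCD was low in *m-cup* (103 CPM, others 141 to 146) and *wa-cup* (21.0 CPM, others 42.5 to 44.8). These are CPM after division by the TMM factor of 1.604 of J3_S53, which had 2275 counts of *m-cup* in a total of 14638498. Obp50NegBCD 21_S38 was low in *c-cup* (22.1 CPM, others 25.3 to 25.5) and *r-cup* (25.1 CPM, others 28.1 to 28.4), and 23_S40 was high in *schuy* (91.9 CPM, others 88.0 to 88.5).

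In females, Obp50b 33_S25 was high in *c-cup* (0.752 CPM, others 0.0896 to 0.124), *h-cup* (1.37 CPM, others 0.0524 to 0.179) and *r-cup* (3.33 CPM, others 0.786 to 0.985). Obp50Neg 6_S6 was high in *w-cup* (9.80 CPM, others 1.16 to 1.44) and *c-cup* (0.388 CPM, others 0.124 to 0.164), and 2_S2 in *m-cup* (50.9 CPM, others 48.2 to 48.4). Obp50a 62_S42 was high in *w-cup* (2.23 CPM, others 0.962 to 1.07). Obp50NegBCD 18_S10 was low in *d-cup* (0.0408 CPM, which is 1 count, others 0.151 to 0.170).

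The 2 female libraries left out of the comparisons held several of the genes above the highest female Obp50Neg library. The Obp50Pos library J2_S52 had 0.707 CPM of *c-cup* (highest Obp50Neg value 0.388), 0.976 of *d-cup* (0.194), 1.48 of *h-cup* (0.485), 0.640 of *p-cup* (0.631), 3.30 of *r-cup* (1.16) and 2.29 of *schuy* (1.07). The Obp50cBCD library 55_S45 had 1.46 CPM of *r-cup* (1.16) and 2.04 of *wa-cup* (2.01).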

How the results depend on the processing

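The excess in males held for 9 of 9 genes under every alternative run. The other counts are of genes or pairs called. In males, where the edgeR fit over both sexes called 0 throughout, any genotype gave 1 with each sex alone, 4 in the first set and 2 in males alone without the 7 libraries rich in yolk protein RNA. Obp50a against Obp50Neg gave 1 in the mixed model, and Obp50b against Obp50NegBCD 4 in the first set and 2 in the mixed model. Obp50cBCD against Obp50c gave 1 with each sex alone, 1 in the first set, 1 in the mixed model and 2 in males alone without the 7 libraries. Line contrasts gave 1 with each sex alone. Female genotype pairs (0 of 81) gave 1 with DESeq2's size factors, 1 with no filter, 1 with a mean count of at least 10, 1 with all 56 libraries and 4 with DESeq2. Without 1 library they ranged from 0 to 3, with 3 without 6_S6 or 33_S25, 2 without 18_S10, 19_S11, 42_S14, 58_S48, 63_S43 or 83_S35 and 1 without 1_S1, 2_S2, 5_S5, 34_S26 or 84_S36. Any genotype in females (3) gave 5 with a mean count of at least 10, 7 with all 56 libraries, 0 with each sex alone (0 with an unadjusted *P* under 0.05 in edgeR), 0 with counts summed by line (3), 0 with limma-voom (0) and 7 with DESeq2. Without 1 library it ranged from 2 to 6, with 6 without 63_S43 and 5 without 19_S11, 34_S26, 58_S48 or 63_S24. The cause of these changes was not tested. Males and females share insertion lines, and with line as a fixed block the sex comparison still called 9 of 9 genes. No paired analysis was possible because the labels give no replicate numbers shared between groups and each line belongs to 1 genotype, so that between genotypes nothing could be paired. In females, counts of 0 to 3 limit what could be seen of *c-cup*, *d-cup* and *h-cup*.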
